A study of Mus musculus with 6 samples.

Results

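The 39 genes described here encode the insulin and insulin-like growth factor (IGF) receptors, PI3K, AKT and the mTOR complexes, with their regulators and effectors. They were picked by symbol from a table of 21878 rows. All 39 had a row, and 37 of them passed the filter of a mean of at least 1 FPKM (fragments scaled to transcript length and library size) over the 6 libraries. The other 2 were Igf2r, at 0.489 to 0.617 FPKM, and Foxo1, which was at or below 0.0292 FPKM in each library and listed at 0 in 3 of the 6.

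RNA was sequenced from Neuro-2a cells, a mouse neuroblastoma line of the sympathetic lineage that can grow neurites. Each of 3 groups had 2 libraries. The first was control cells labelled wild type. The second overexpressed lncPim1, a long noncoding RNA, and the third had RNA interference of lncPim1, called knockdown below. The labels name no vector, scrambled RNA, dose, time or clone. Nothing in them says that replicate libraries are separate cultures, so p-values reflect the spread between libraries alone and that spread may be technical. lncPim1 itself was not analysed here, so the labels were not checked on the targeted RNA.

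Insulin and IGFs bind receptor tyrosine kinases, which phosphorylate IRS adaptors and thereby recruit PI3K. The lipid that PI3K makes brings AKT to the membrane, where PDK1 and mTOR complex 2 activate it. AKT then inhibits GSK3, FoxO factors and the TSC complex, and with TSC inhibited the GTPase Rheb switches on mTOR complex 1, which drives protein synthesis through S6 kinases and 4E-BP proteins. In neurons this pathway is known for its part in survival, growth of the cell body and axon growth. Most of it is run by phosphorylation, which an RNA measurement does not see.

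Summed FPKM ran from 272528 to 305463 per library, lowest in the knockdown libraries. Spearman correlations over tested genes were 0.995 to 0.997 within groups and 0.976 to 0.994 between groups. Of 16 sympathetic neuroblast markers, 14 had a mean of at least 1 FPKM in each group. Their summed level was 1270 to 1309 FPKM in control, 1106 to 1219 under overexpression and 931 to 956 under knockdown. Of 17 digestive tract markers, 13 reached a mean of 1 FPKM in control cells, summing to 59.5 to 63.3 FPKM there, 56.4 to 69.4 under overexpression and 25.8 to 26.4 under knockdown, where 10 were listed at 0 in both libraries. The 10 macrophage markers summed to 6.86 to 7.47 FPKM in control, 4.97 to 5.20 under overexpression and 9.25 to 9.44 under knockdown. Of these, Cd68, a gene of a lysosomal protein, rose under knockdown from 0.348 and 0.397 FPKM to 3.31 and 4.31 (log2 fold change 1.80 ± 0.11, limma, adjusted p = 6.76e-05). Cd68 rose by more than the sum did, so the remaining macrophage markers together were lower under knockdown than in control. Ptprc and Csf1r were below 0.05 FPKM in each library. The 10 fibroblast markers summed to 1.98 to 2.40 FPKM in control, 2.16 to 2.41 under overexpression and 2.72 to 2.82 under knockdown. The part of these marker changes in the results below was not tested.

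Promoter sequence from RefSeq (build GRCm38.p6) is shown for a few members, out of 34 of the 39 that had an entry. Igfbp7 is shown because it is the member that rose in both treated groups. Igfbp4 and Prkaa1 are shown as a rise and a fall under knockdown that were called in each fit that was tried, and Tsc1 and Tsc2 because these partners moved in opposite directions under knockdown. Each run reads 5′ to 3′ on the gene's strand, lies upstream of the RefSeq start and leaves out annotated exons. Capitals mark the Egr motif GCGNGGGCG.
Igfbp7 (chr5:77408046-77408295, minus strand): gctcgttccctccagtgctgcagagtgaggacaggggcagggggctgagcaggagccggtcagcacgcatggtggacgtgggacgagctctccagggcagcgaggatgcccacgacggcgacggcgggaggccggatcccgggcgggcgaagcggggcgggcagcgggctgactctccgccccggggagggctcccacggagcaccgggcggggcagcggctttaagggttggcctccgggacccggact
Igfbp4 (chr11:99040994-99041243, plus strand): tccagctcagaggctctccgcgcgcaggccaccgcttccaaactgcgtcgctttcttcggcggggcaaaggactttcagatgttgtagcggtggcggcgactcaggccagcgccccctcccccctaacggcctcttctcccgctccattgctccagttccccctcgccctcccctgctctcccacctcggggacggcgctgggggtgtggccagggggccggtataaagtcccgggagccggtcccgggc
Prkaa1 (chr15:5143611-5143860, plus strand): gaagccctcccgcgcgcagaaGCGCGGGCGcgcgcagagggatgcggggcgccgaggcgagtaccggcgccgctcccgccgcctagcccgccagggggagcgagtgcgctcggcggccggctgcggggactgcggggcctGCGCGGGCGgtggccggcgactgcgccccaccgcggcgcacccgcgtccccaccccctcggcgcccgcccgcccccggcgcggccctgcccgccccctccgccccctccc
Tsc1 (chr2:28640983-28641227, plus strand): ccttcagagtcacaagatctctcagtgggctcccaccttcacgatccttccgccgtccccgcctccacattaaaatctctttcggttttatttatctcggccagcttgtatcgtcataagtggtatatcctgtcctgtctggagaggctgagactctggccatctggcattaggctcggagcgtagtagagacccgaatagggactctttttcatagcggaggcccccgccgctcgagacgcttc
Tsc2 (chr17:24632631-24632679, minus strand): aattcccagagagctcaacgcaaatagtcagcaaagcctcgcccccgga

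The 250 bases before each RefSeq start were searched on both strands for the motifs GTAAACA (FoxO), TGACNNNGC (antioxidant response element), GCGNGGGCG (Egr) and CACGTG (E-box). The FoxO motif was in 1 of the 47 promoters listed for the 34 members (Akt1) and in 3.17% of 32851 mouse promoters. The Egr motif was in 6 member promoters (Igf2r, Inppl1, Pdpk1, Pik3r1, Prkaa1, Rictor), or 12.77%, against 4.70% of all promoters. The E-box was likewise in 6 member promoters (Igf2r, Igfbp2, Irs1, Irs2, Rheb, Sgk1), against 6.02% of all. The antioxidant motif was in 3 member promoters, those of Irs1, Irs2 and Rheb, against 10.16% of all, and in each of these 3 a match overlapped the E-box. These E-boxes also shared the longer word GTCACGTG, searched for after the overlap was seen, which 4 of the 47 member promoters (8.51%) and 1.85% of all promoters held. The fourth was that of Igf2r, which had no antioxidant match. The E-boxes of the 3 genes are shown with the E-box in capitals, since Irs1 and Rheb were lower under knockdown before libraries were rescaled, while Irs2 was not called.
Irs1 (chr1:82291537-82291566, minus strand): cagaggctccgtCACGTGttttgctcctct
Irs2 (chr8:11008956-11008985, minus strand): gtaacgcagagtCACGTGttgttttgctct
Rheb (chr5:24842440-24842469, minus strand): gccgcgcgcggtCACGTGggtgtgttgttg
A match describes these letters and does not show that a factor binds there.

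FPKM is scaled to transcript length, so levels can be compared between genes. The members spanned about 2 orders of magnitude among those tested. Eif4ebp1, which encodes a translation repressor that mTOR complex 1 inactivates, was the most abundant at 188 to 215 FPKM. It was followed by the IGF-binding protein gene Igfbp4 (109 to 152), the GTPase gene Rheb (62.6 to 72.1), the second translation repressor gene Eif4ebp2 (40.8 to 45.3) and the adaptor gene Irs2 (38.7 to 47.2). The ranges of Eif4ebp2 and Irs2 overlapped, so their order is not separated by the spread. At the low end stood Igfbp5 (1.02 to 2.33 FPKM), Foxo4 (2.04 to 2.84), the S6 kinase gene Rps6kb1 (2.37 to 2.61) and the IGF receptor gene Igf1r (2.77 to 3.29). In this order the range of Foxo4 overlapped those of Igfbp5, Rps6kb1 and Igf1r, so the order there is not separated by the spread.

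**Figure D1:**
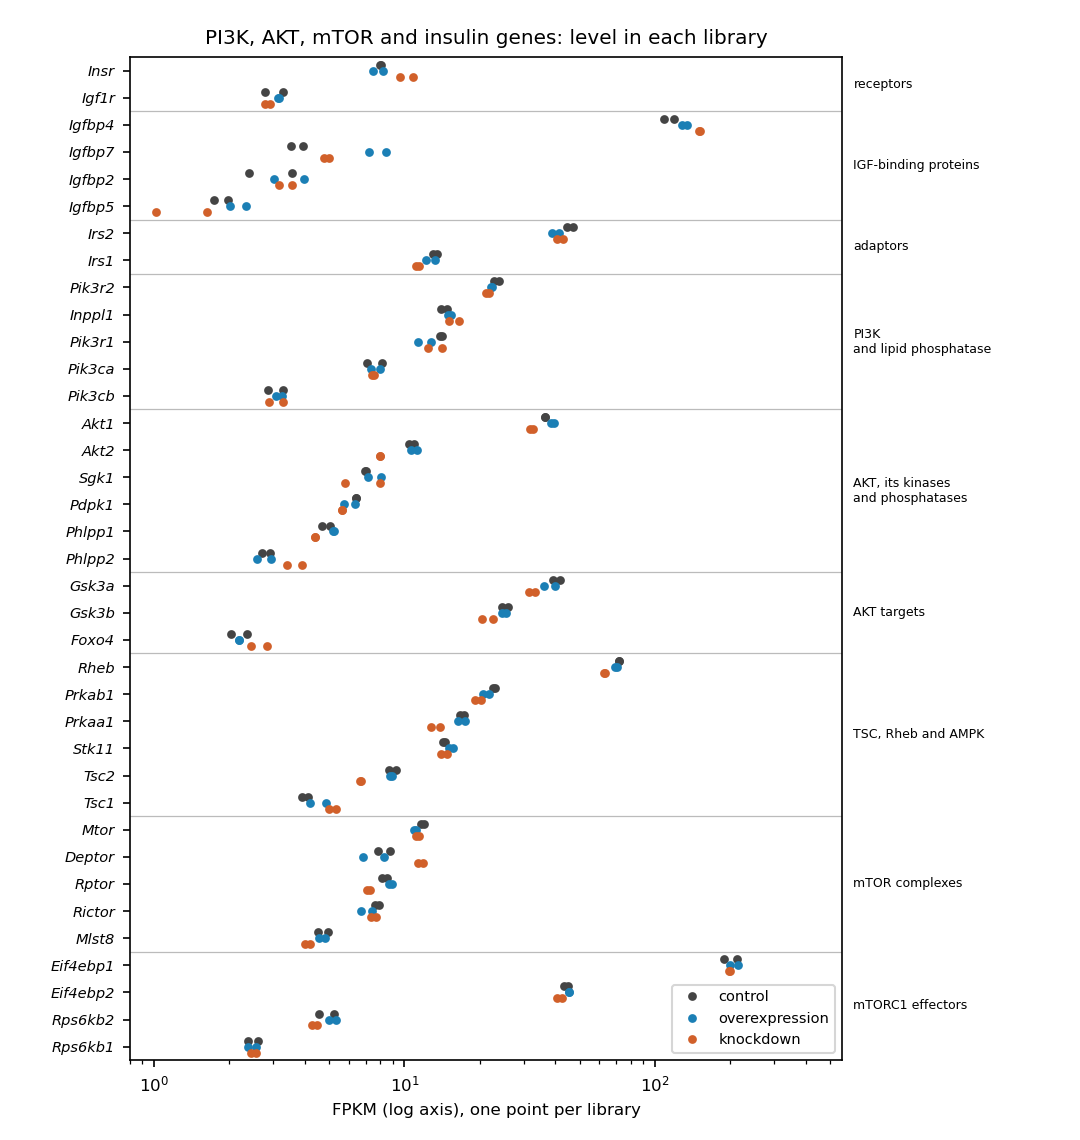
FPKM of the 37 tested members in each library, on a log axis, with 2 points per group, grouped by role in the pathway. Eif4ebp1 and Igfbp4 are the most abundant, and for most members the points of the 3 groups lie close together.

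Within pairs of related genes, the same partner was the more abundant in all 6 libraries. Akt1 was 3.32 to 4.08 times as high as Akt2, Irs2 was 3.13 to 3.87 times as high as Irs1, Insr was 2.40 to 3.71 times as high as Igf1r, and Gsk3a was 1.47 to 1.70 times as high as Gsk3b. Eif4ebp1 exceeded Eif4ebp2 by 4.19 to 4.92 times. Of the FoxO factors among the members, Foxo4 was the one detected at a tested level.

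The first comparison asked what overexpression of lncPim1 changed. A single member changed: Igfbp7, which encodes a secreted protein of the IGF-binding family with low affinity for IGFs, rose. In FPKM it stood at 3.53 and 3.95 in control cells and at 8.41 and 7.23 under overexpression. Both overexpression libraries were above all other libraries of the study. The log2 fold change was 0.89 ± 0.08 (SE, n = 2 libraries a group) in the fit over all 10721 tested genes (limma, Benjamini-Hochberg adjusted p = 0.00366). Folds here and below are on the log2(FPKM + 1) scale, which understates the change of low genes, and genes with an adjusted p under 0.05 are termed called. The gene maps to chromosome 5, 77349240 to 77408041, minus strand (GENCODE release M21, build GRCm38), and 7.0% of its exonic bases are shared with Polr2b on the opposite strand. Whether counting used strand remains not given in the sources used here. Without it, reads of such overlapping genes cannot be told apart.

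With Igfbp7, 1 of 37 tested members was called under overexpression, beside 1.54% of all tested genes (0.69% higher and 0.849% lower). The other 36 were not called. Of the 37, 4 members had an unadjusted p under 0.05 (Igfbp7, Igfbp4, Irs2 and Pik3r1), beside 1833 of all 10721 tested genes. The median log2 fold change was -0.0020 over the 37, against -0.0031 over all tested genes, and 26 of the 37 lay within 0.1 of 0. Igfbp4 stood at 109 and 119 FPKM in control cells and at 134 and 128 under overexpression (log2 fold change 0.20 ± 0.06, limma, adjusted p = 0.119). Irs2 was at 44.6 and 47.2 in control cells and 41.5 and 38.7 under overexpression (-0.19 ± 0.06, limma, adjusted p = 0.141). Pik3r1, the gene of the p85-alpha regulatory subunit of PI3K, was at 14.1 and 13.9 against 12.8 and 11.4 (-0.20 ± 0.08, limma, adjusted p = 0.226). For these 3 genes the libraries of the 2 groups did not overlap, as was so for 19 of the 37 members and 49.5% of all tested genes, and the differences did not pass the adjustment. Akt1 was at 36.5 and 36.3 FPKM in control cells and 38.4 and 39.6 under overexpression (0.10 ± 0.05, limma, adjusted p = 0.339), and Mtor at 11.6 and 12.01 against 11.1 and 10.9 (-0.09 ± 0.06, limma, adjusted p = 0.436).

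The Igfbp7 call under overexpression stayed with each of the 6 libraries left out in turn. It was lost only without a filter on low values, where 17311 genes were tested (log2 fold change 0.89, limma, adjusted p = 0.0651).

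**Figure D2:**
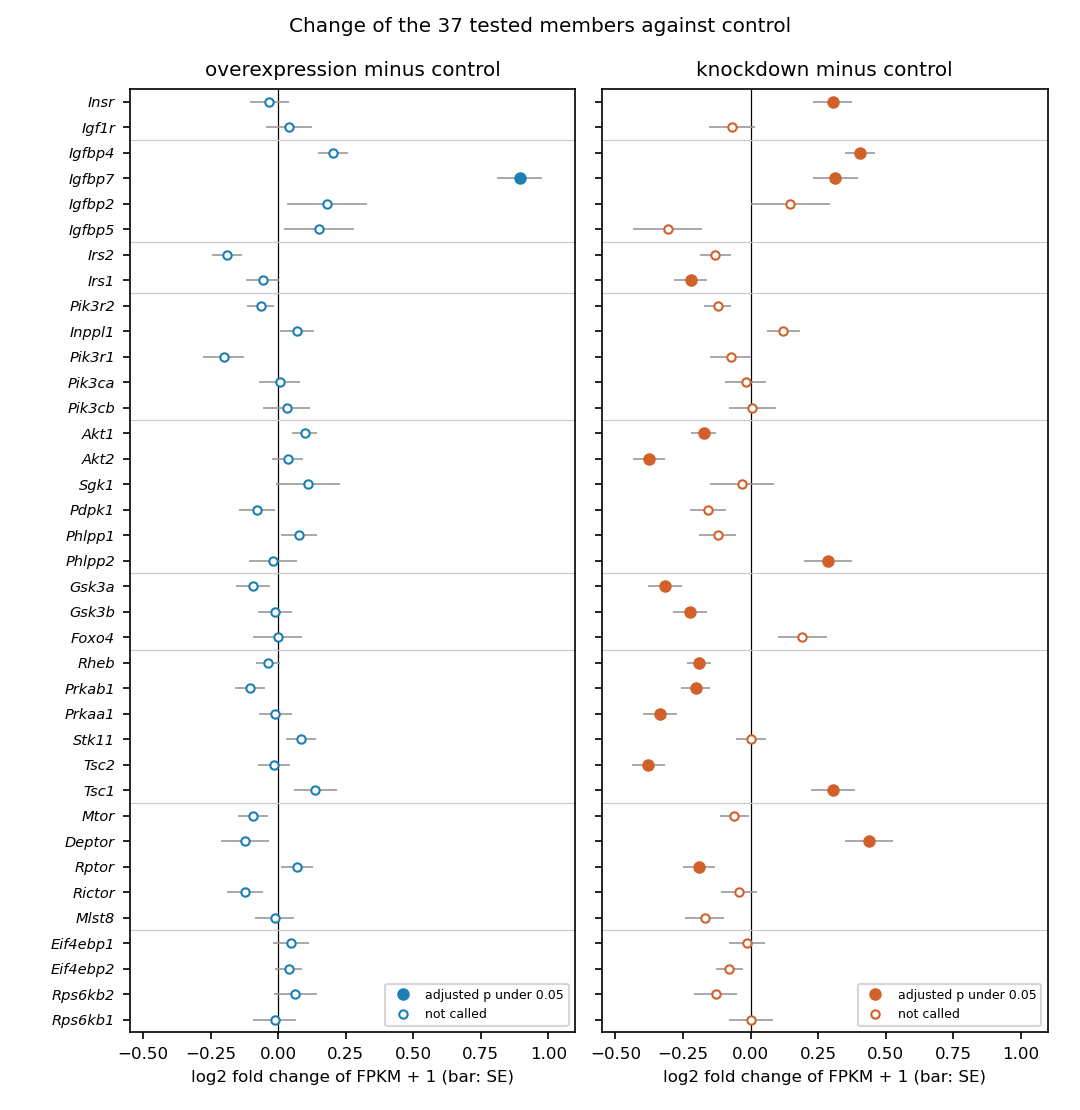
Log2 fold change of FPKM + 1 for each tested member against control under overexpression (left) and knockdown (right), with bars for the SE of the fit over all genes and filled points for an adjusted p under 0.05. Under overexpression Igfbp7 alone is filled, and under knockdown 16 members are, 6 to the right of 0 and 10 to the left.

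The second comparison asked what knockdown of lncPim1 changed. The insulin receptor gene Insr, the IGF-binding protein genes Igfbp4 and Igfbp7, the mTOR inhibitor gene Deptor, Tsc1 and the AKT phosphatase gene Phlpp2 were higher. Both AKT genes among the members, both GSK3 genes, Tsc2, Rheb, Irs1, Rptor and the AMPK subunit genes Prkaa1 and Prkab1 were lower. Called members numbered 16 of 37 (43.2%), 6 higher and 10 lower, beside 46.2% of all tested genes, 14.8% higher and 31.3% lower. Before rescaling, the share of members called was thus near that of the whole table. The median log2 fold change was -0.074 over the members and -0.070 over all tested genes. Knockdown and control libraries did not overlap for 27 of the 37 members and for 74.4% of all tested genes. In bulk RNA a lower level per cell and fewer cells with the transcript cannot be told apart.

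The split depended on how the libraries were scaled. After median log ratio scaling, 11 members were called, 7 higher and 4 lower, and after quantile normalization 12, 8 higher and 4 lower. These were 29.7% of members beside 42.7% of all tested genes, and 32.4% beside 40.1%. Over all genes the higher share of calls went from 32.1% to 47.1% and 46.6%. Under median log ratio scaling 10 of the 16 members stayed called, and the 6 lost were all among the falls: Akt1, Gsk3b, Irs1, Prkab1, Rheb and Rptor. Quantile normalization lost these 6 and also Gsk3a. Calls that held in all 15 alternative fits were those of Igfbp4, Deptor, Akt2, Tsc2 and Prkaa1.

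**Figure D3:**
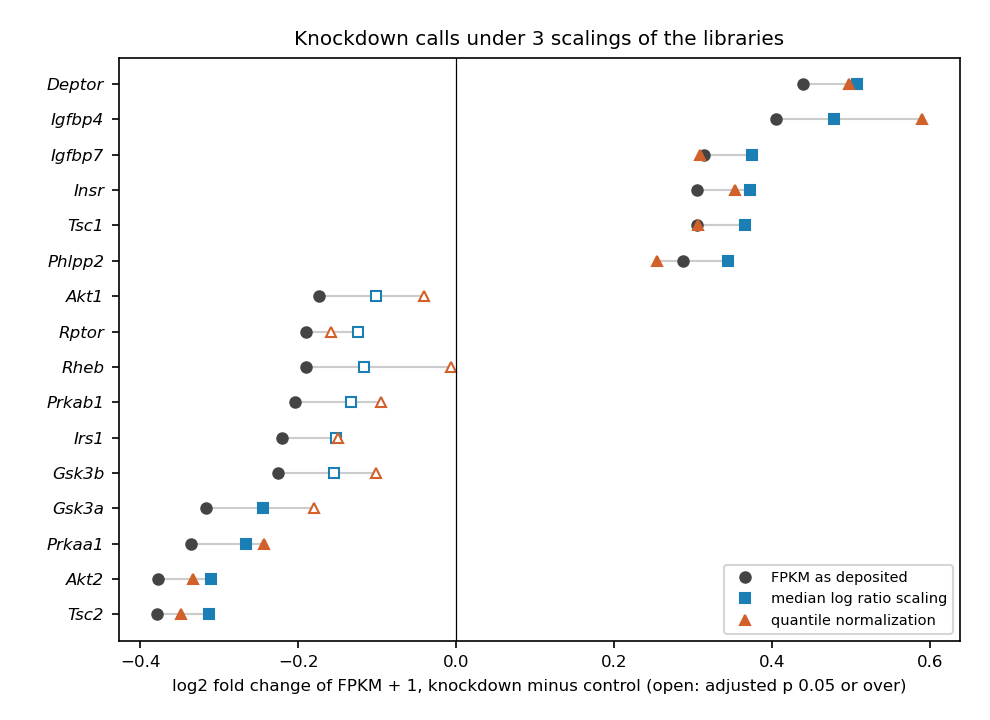
Log2 fold change under knockdown of the 16 called members with FPKM as deposited (circles), after median log ratio scaling (squares) and after quantile normalization (triangles), with open symbols for an adjusted p of 0.05 or over. The 6 rises stay filled under all 3 scalings, while Akt1, Rptor, Rheb, Prkab1, Irs1 and Gsk3b open under both rescalings and Gsk3a under quantile normalization.

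At the cell surface, Insr stood at 8.01 and 8.09 FPKM in control cells, 8.22 and 7.50 under overexpression and 10.8 and 9.62 under knockdown. Both knockdown libraries were above the other 4, with a log2 fold change of 0.30 ± 0.07 (limma, adjusted p = 0.00890). The call was lost without knockdown 1 (limma, adjusted p = 0.0578). Insr maps to chromosome 8, 3122061 to 3279617, minus strand of GRCm38. Its relative Igf1r stood at 3.29 and 2.78 in control cells and 2.91 and 2.77 under knockdown (-0.07 ± 0.08, limma, adjusted p = 0.534). Igf2r, a receptor that clears IGF2 and does not signal through PI3K, was not tested because of its low level.

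Of the members for secreted binding proteins, Igfbp4 had the clearest rise under knockdown. The gene encodes an inhibitor of IGF action cleaved by the protease pappalysin. It stood at 109 and 119 FPKM in control cells, 134 and 128 under overexpression and 149.6 and 151.8 under knockdown. The 3 groups did not overlap, with the overexpression libraries between the others. The log2 fold change under knockdown was 0.40 ± 0.06 (limma, adjusted p = 7.09e-04). Igfbp4 maps to chromosome 11, 99041244 to 99054392, plus strand. Igfbp7 stood at 4.99 and 4.78 FPKM under knockdown, above both control libraries and below both overexpression libraries (0.31 ± 0.08 against control, limma, adjusted p = 0.0155). That call did not hold without control 1 (limma, adjusted p = 0.1004), without knockdown 1 (0.0712) and without a filter on low values (0.0563).

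Not all binding proteins moved this way. Igfbp5 was at 1.97 and 1.74 FPKM in control cells, 2.33 and 2.01 under overexpression and 1.02 and 1.62 under knockdown (-0.31 ± 0.13 under knockdown, limma, adjusted p = 0.0797). It was called lower without knockdown 2 and after quantile normalization. Igfbp2 ranged from 2.39 to 3.96 FPKM with overlapping groups and was not called in any comparison.

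Of the adaptors, Irs1 stood at 13.5 and 13.0 FPKM in control cells, 13.3 and 12.2 under overexpression and 11.1 and 11.4 under knockdown. Its log2 fold change under knockdown was -0.22 ± 0.06 (limma, adjusted p = 0.0172), and -0.15 after either rescaling (limma, adjusted p = 0.0787 and 0.0829). The call also did not hold without control 1 (limma, adjusted p = 0.101) and without knockdown 1 (0.0728). Irs1 shares 30.9% of its exonic bases with Gm9747 on the opposite strand, so its reads are uncertain. Irs2, at 44.6 and 47.2 FPKM in control cells and 42.9 and 40.8 under knockdown, was not called (-0.13 ± 0.06, limma, adjusted p = 0.0900).

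Among the members, PI3K genes showed no call under knockdown. Of the 5 members for PI3K subunits and the lipid phosphatase Inppl1 (SHIP2), limma called 0, with 1 at an unadjusted p under 0.05, Pik3r2. Over all tested genes, 5799 of 10721 had an unadjusted p under 0.05. In the wider pathway list described below, 4 of 9 tested genes for PI3K and lipid phosphatases were called, 3 higher and 1 lower. The share called over all tested genes was 46.2%. The catalytic subunit gene Pik3ca ranged from 7.10 to 8.16 FPKM and Pik3cb from 2.85 to 3.29 over the 6 libraries, with overlapping groups. The regulatory subunit gene Pik3r2 was at 23.9 and 22.8 in control cells and 21.1 and 21.7 under knockdown (-0.12 ± 0.05, limma, adjusted p = 0.0804). Inppl1 was at 14.0 and 14.7 against 16.5 and 15.0 (0.12 ± 0.06, limma, adjusted p = 0.136), and was called higher after both rescalings.

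At the level of AKT, the 2 genes fell by unequal amounts. Akt2 stood at 10.4 and 10.9 FPKM in control cells, 11.2 and 10.6 under overexpression and 7.97 and 7.98 under knockdown. Its log2 fold change under knockdown was -0.38 ± 0.06 (limma, adjusted p = 0.00136). Akt1, at 36.5 and 36.3 in control cells, stood at 31.8 and 32.5 under knockdown (-0.17 ± 0.05, limma, adjusted p = 0.0161). Only the fall of Akt2 held when libraries were rescaled. For Akt1 the log2 fold change became -0.10 with median log ratio scaling (limma, adjusted p = 0.113) and -0.04 after quantile normalization (0.508). Without control 1, control 2 or knockdown 1 the Akt1 call was lost as well (limma, adjusted p = 0.0828, 0.0682 and 0.0645). Akt2 maps to chromosome 7, 27591552 to 27640826, plus strand.

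The AKT-activating kinase gene Pdpk1 was at 6.43 and 6.39 FPKM in control cells and 5.63 and 5.65 under knockdown (-0.16 ± 0.07, limma, adjusted p = 0.0858). Of the genes for the phosphatases that dephosphorylate AKT, Phlpp2 was called and Phlpp1 was not, and the difference between them was not tested. Phlpp2 was at 2.92 and 2.69 in control cells, 2.93 and 2.59 under overexpression and 3.39 and 3.90 under knockdown (0.29 ± 0.09, limma, adjusted p = 0.0274). Phlpp1 was at 5.05 and 4.70 against 4.38 and 4.41 under knockdown (-0.12 ± 0.07, limma, adjusted p = 0.165). The Phlpp2 call did not hold without control 1 (limma, adjusted p = 0.0617), control 2 (0.136) or knockdown 2 (0.149), and without a filter on low values (0.0757). Sgk1, a kinase gene related to AKT, stood at 6.94 and 7.03 FPKM in control cells and 5.80 and 7.97 under knockdown, on both sides of control, and was not called.

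Among AKT substrates, Gsk3a and Gsk3b, the genes of the glycogen synthase kinases, fell under knockdown. Gsk3a stood at 39.2 and 41.8 FPKM in control cells, 39.9 and 36.1 under overexpression and 31.4 and 33.3 under knockdown (-0.32 ± 0.06, limma, adjusted p = 0.00420). Gsk3b stood at 26.0 and 24.5, 25.5 and 24.6, and 20.4 and 22.6 in the same order of groups (-0.23 ± 0.06 under knockdown, limma, adjusted p = 0.0173). For both, the knockdown libraries were below the other 4. The Gsk3a call was lost after quantile normalization (limma, adjusted p = 0.0616). That of Gsk3b was lost after both rescalings (limma, adjusted p = 0.0819 and 0.273), without control 1 (0.114) and without knockdown 1 (0.0972). Gsk3a shares 28.3% of its exonic bases with the antisense gene 9130221H12Rik. Foxo4 was at 2.04 and 2.35 in control cells and 2.84 and 2.45 under knockdown (0.19 ± 0.09, limma, adjusted p = 0.113).

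The TSC complex, which holds Rheb and so mTOR complex 1 in check, had its partner genes called in opposite directions. Tsc1, the gene of hamartin, stood at 3.90 and 4.11 FPKM in control cells, 4.86 and 4.18 under overexpression and 5.01 and 5.35 under knockdown. Tsc2, the gene of tuberin, which carries the GTPase-activating domain, stood at 8.68 and 9.23, 8.93 and 8.77, and 6.68 and 6.63. Under knockdown Tsc1 rose by 0.30 ± 0.08 on the log2 scale (limma, adjusted p = 0.0149) and Tsc2 fell by 0.38 ± 0.06 (limma, adjusted p = 0.00144). The Tsc1 call did not hold without control 1 (limma, adjusted p = 0.0830), without knockdown 2 (0.0744) and without a filter on low values (0.0503). Tsc1 maps to chromosome 2, 28641228 to 28691167, plus strand. Tsc2 maps to chromosome 17, 24595816 to 24632630, minus strand, with 7.2% of its exonic bases shared with Pkd1 on the opposite strand.

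Rheb, the GTPase that TSC inactivates, was at 71.9 and 72.1 FPKM in control cells, 70.8 and 69.3 under overexpression and 62.6 and 63.3 under knockdown (-0.19 ± 0.04, limma, adjusted p = 0.00831). Its log2 fold change was -0.12 with median log ratio scaling (limma, adjusted p = 0.0594) and -0.01 after quantile normalization (0.916). AMPK, the energy sensor that activates TSC, had both its tested subunit members lower. Prkaa1, the catalytic alpha subunit gene on chromosome 15 from 5143861 to 5181899, was at 16.7 and 17.4 in control cells and 12.8 and 13.8 under knockdown (-0.34 ± 0.06, limma, adjusted p = 0.00275). Prkab1, the gene of a scaffolding beta subunit, was at 23.0 and 22.6 in control cells, 20.7 and 21.7 under overexpression and 20.3 and 19.1 under knockdown (-0.20 ± 0.05, limma, adjusted p = 0.0152). That call was lost after both rescalings (limma, adjusted p = 0.0785 and 0.189) and without control 1 (0.0835), control 2 (0.0564) or knockdown 2 (0.0730). Stk11, the gene of the AMPK-activating kinase LKB1, was at 13.99 to 15.6 FPKM in all libraries and was not called.

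In the mTOR complexes, the kinase gene Mtor and the complex 2 subunit gene Rictor were not called in any comparison. Mtor ranged from 10.9 to 12.01 FPKM and Rictor from 6.71 to 7.88. Deptor, which encodes an inhibitory partner of both complexes, stood at 7.84 and 8.75 in control cells, 8.28 and 6.84 under overexpression and 11.4 and 11.8 under knockdown. Both knockdown libraries were above the other 4 (0.44 ± 0.09, limma, adjusted p = 0.00420). Deptor maps to chromosome 15, 55112317 to 55259271, plus strand. Rptor, the gene of the subunit that defines complex 1, was at 8.17 and 8.51 in control cells and 7.29 and 7.09 under knockdown (-0.19 ± 0.06, limma, adjusted p = 0.0285). The Rptor call was lost after both rescalings (limma, adjusted p = 0.119 and 0.0555), with a replicate block (0.0528), and without control 1, control 2, knockdown 1 or knockdown 2 (0.0619 to 0.144). Mlst8, a subunit of both complexes, was at 4.54 and 4.96 against 4.22 and 3.999 (-0.17 ± 0.07, limma, adjusted p = 0.0852).

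The 4 members for direct effectors of mTOR complex 1 were not called. Limma called 0 of Rps6kb1, Rps6kb2, Eif4ebp1 and Eif4ebp2 under knockdown, with 0 at an unadjusted p under 0.05. Over all tested genes, 5799 of 10721 had an unadjusted p under 0.05. In the wider pathway list described below, 6 of 14 tested effector genes of this complex were called, 4 higher and 2 lower. All tested genes were called at a share of 46.2%. Eif4ebp1 was at 188 and 213 FPKM in control cells and 198 and 199 under knockdown (-0.01 ± 0.07, limma, adjusted p = 0.891). It was called higher after quantile normalization, with a log2 fold change of 0.20. Eif4ebp2 was at 44.9 and 43.2 against 40.8 and 42.6 (-0.08 ± 0.05, limma, adjusted p = 0.219).

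**Figure D4:**
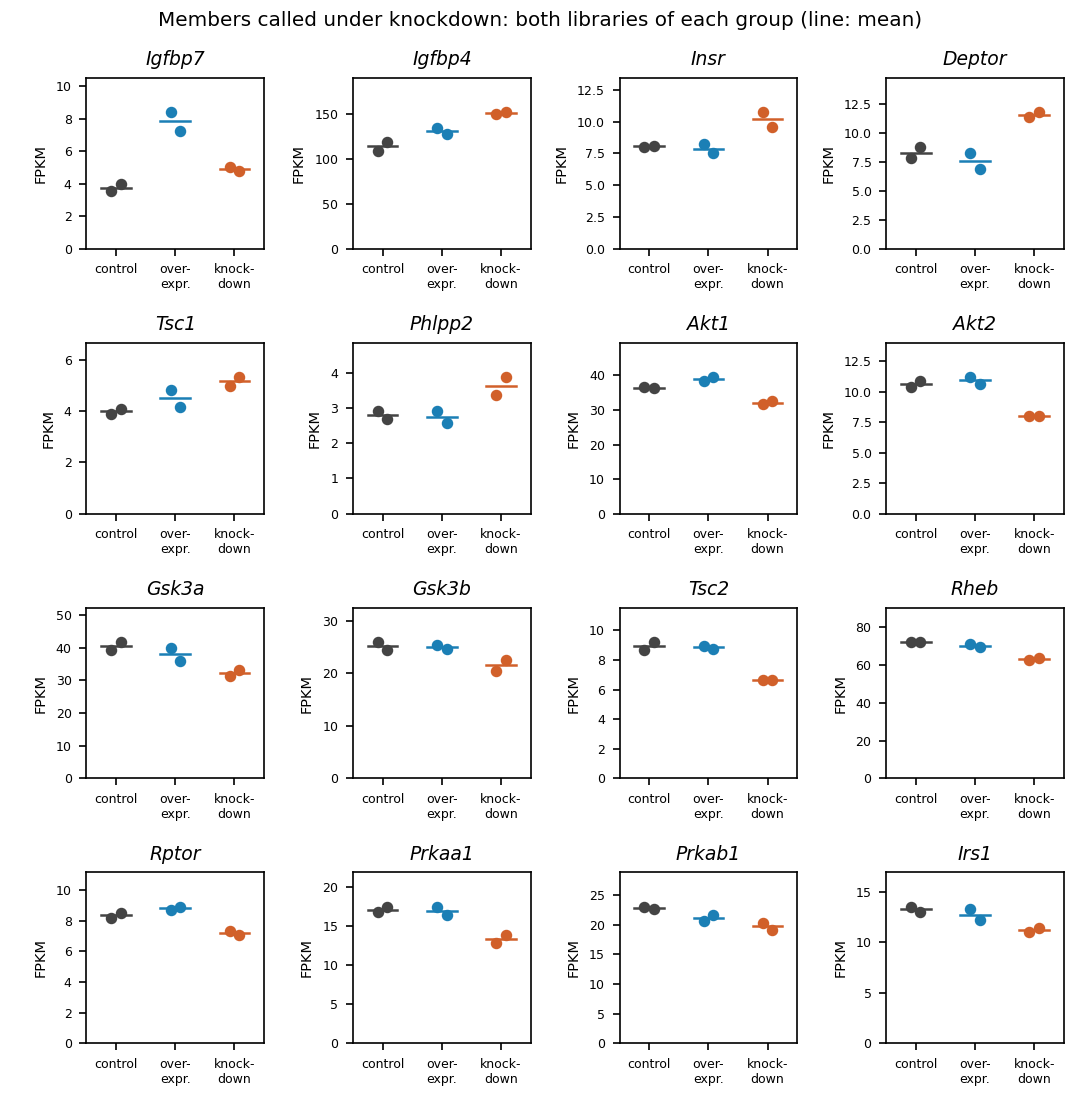
FPKM in both libraries of each group for the 16 members called under knockdown, with a line at the group mean and axes that start at 0. For 6 members both knockdown points lie above the control points and for 10 below them. Knockdown and control did not overlap for 74.4% of all tested genes. Among the 6, Igfbp7 is the one whose overexpression points are the highest.

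A ratio of 2 genes within a library is unchanged when that library is scaled by a single factor. Quantile normalization can still change it. These ratios were chosen after the values were seen and are given without a test. Tsc1 over Tsc2 was 0.449 and 0.445 in control cells, 0.544 and 0.477 under overexpression and 0.750 and 0.807 under knockdown. Deptor over Mtor was 0.676 and 0.728, 0.743 and 0.629, and 1.02 and 1.04 in the same order. Insr over Igf1r was 2.44 and 2.92, 2.60 and 2.40, and 3.71 and 3.47. In each of these 3 ratios the knockdown libraries were the highest 2 of the 6. Gsk3a over Gsk3b, by contrast, overlapped between groups, at 1.51 and 1.70 in control cells and 1.54 and 1.47 under knockdown.

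**Figure D5:**
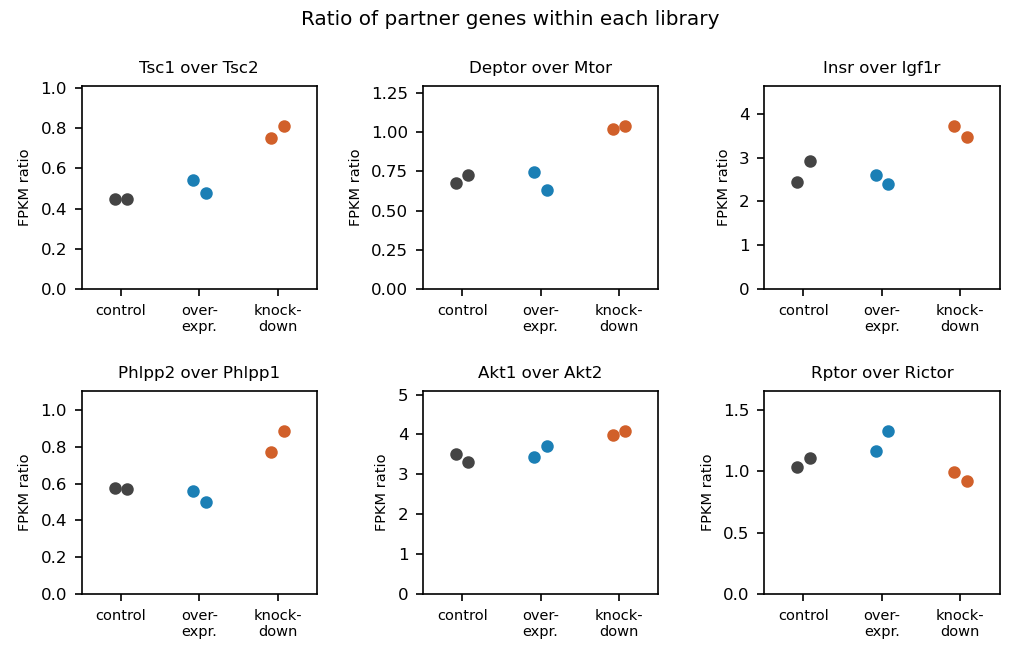
Ratio of FPKM between partner genes within each library, with 2 points per group and axes from 0. The knockdown points of Tsc1 over Tsc2, Deptor over Mtor, Insr over Igf1r, Phlpp2 over Phlpp1 and Akt1 over Akt2 lie above the other 4. Those of Rptor over Rictor lie below them.

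The third comparison set overexpression directly against knockdown, and it shares libraries with both comparisons above. Called members numbered 15 of 37, 11 higher and 4 lower under overexpression, beside 40.5% of all tested genes, 28.1% higher and 12.4% lower. Of these, 13 were also called under knockdown against control. After median log ratio scaling 11 members were called, 7 higher and 4 lower, 29.7% beside 36.2% of all tested genes. After quantile normalization 12 were called, 7 higher and 5 lower, 32.4% beside 33.9%. Both rescalings lost the calls of Gsk3a, Gsk3b, Phlpp1 and Rheb. Calls of Insr, Igfbp7, Akt1, Akt2, Tsc2, Prkaa1 and Deptor held in all 15 alternative fits. Igfbp7 was higher under overexpression by 0.58 ± 0.08 on the log2 scale (limma, adjusted p = 0.00136), while Deptor was lower by 0.56 ± 0.09, that is a log2 fold change of -0.56 (limma, adjusted p = 0.00187). The difference in Akt1 was 0.27 ± 0.05 (limma, adjusted p = 0.00279) and that in Akt2 0.41 ± 0.06 (limma, adjusted p = 0.00130).

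The members called here but not against control were Igfbp5, higher under overexpression by 0.46 ± 0.13 (limma, adjusted p = 0.0212), and Phlpp1, by 0.20 ± 0.07 (limma, adjusted p = 0.0414). The Igfbp5 call was lost without overexpression 1, without knockdown 1 and without a filter on low values, and the Phlpp1 call in 11 of its 14 alternative fits. Tsc1 (-0.17 ± 0.08, limma, adjusted p = 0.134), Irs1 (0.16 ± 0.06, 0.0603) and Prkab1 (0.10 ± 0.05, 0.174) were called under knockdown against control but not against overexpression.

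A further 109 genes of the pathway were listed, of which 106 had a row under the listed symbol and 85 were tested. Under overexpression 10 of the 85 had an unadjusted p under 0.05, beside 1833 of all 10721 tested genes. Of the 85, 1 was called, lower (1.18%, beside 1.54% of all tested genes). It was Rragb, a Rag GTPase gene of the amino acid branch of mTOR complex 1, at 7.94 and 8.28 FPKM in control cells and 5.62 and 5.90 under overexpression (-0.43 ± 0.08, limma, adjusted p = 0.0413). The Rragb call was lost in 8 of 15 alternative fits, among them those without either control or either overexpression library. Under knockdown 39 of the 85 (45.9%) were called, 20 higher and 19 lower, beside 46.2% of all tested genes. Rescaling by median log ratio gave 24 higher and 14 lower, 44.7% beside 42.7% of all tested genes. Over all tested genes it gave 2158 higher and 2420 lower. With FPKM as deposited, the median log2 fold change was -0.019, against -0.070 over all genes.

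Of these further genes, the 8 with the smallest p under knockdown were called in all 15 alternative fits, and 7 were lower. Rragd, another Rag GTPase gene, went from 17.5 and 16.9 FPKM in control cells to 11.1 and 10.8 (-0.61 ± 0.05, limma, adjusted p = 1.44e-04). Mapkap1, which encodes the mSIN1 subunit of mTOR complex 2, went from 16.1 and 16.2 to 11.8 and 11.004 (-0.47 ± 0.06, limma, adjusted p = 3.92e-04). The AMPK gamma subunit gene Prkag2 went from 7.31 and 6.802 to 4.38 and 4.33 (-0.59 ± 0.06, limma, adjusted p = 2.90e-04). The protein phosphatase catalytic subunit genes Ppp2ca (-0.35 ± 0.04) and Ppp2cb (-0.49 ± 0.05) and the death agonist gene Bad (-0.39 ± 0.05) were lower as well. Igfbp6, the gene of an IGF2-binding protein, rose from 18.2 and 20.3 to 27.3 and 31.0 (0.57 ± 0.07, limma, adjusted p = 5.12e-04), with 24.96 and 24.3 under overexpression.

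Overexpression against knockdown called 35 of the 85, 18 higher and 17 lower, or 41.2%, beside 40.5% of all tested genes. This split depended on scaling. After median log ratio scaling 11 were higher and 22 lower, 38.8% beside 36.2% of all tested genes. After quantile normalization 9 were higher and 20 lower, 34.1% beside 33.9%. The genes named next are given with FPKM as deposited. Rragd (0.57 ± 0.05), Mapkap1 (0.47 ± 0.06), Prkag2 (0.48 ± 0.06), the GATOR2 subunit gene Seh1l (0.40 ± 0.06), Ppp2cb (0.34 ± 0.05), Ppp2ca (0.26 ± 0.04) and the ribosomal S6 kinase gene Rps6ka1 (0.44 ± 0.08) were higher under overexpression. Pdcd4, a translation repressor that S6 kinase targets for degradation, was lower, at 9.98 and 9.87 FPKM against 14.5 and 13.4 (-0.45 ± 0.07, limma, adjusted p = 0.00156).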

How the data were processed

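Gene expression was measured by RNA sequencing of 6 libraries, 2 in each of 3 groups taken from the titles. Libraries were stranded and poly(A)-selected per the labels' protocols. The authors deposited FPKM values by gene symbol, 1 column a library. The tools named per the submitters' processing notes were HISAT2, Cufflinks, Trimmomatic, DESeq and HTSeq, with build mm10. Their versions, the annotation and any strand option were not given in the sources used here. Because FPKM is relative to the library total, abundant genes that change shift all other values. Absolute depth is unknown. Steps between low values put depth relative to control 1 at 0.892 to 1.08, and no counting intervals can be given.

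Genes whose mean reached 1 FPKM were tested as log2(FPKM + 1) with limma 3.58.1 in R 4.3.3. A mean per group was fitted to all 6 libraries with trended empirical Bayes moderation and 3 residual degrees of freedom. P-values were Benjamini-Hochberg adjusted over all 10721 genes. The model was tested on simulated data. Members and lists were chosen with earlier results of these data known. All members could be named, and of each other list up to 8 called genes per comparison by smallest p. Some named results are not reported here. Coordinates are from GENCODE M21. Alternatives were a filter at 5 FPKM or none, pseudocounts of 0.1 and 0.5, both rescalings, no trend, only the compared groups, a replicate block, and each library left out.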

Additional observations from a re-analysis of the deposited data

How the results depend on the processing

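Limits come first. Depth in reads is unknown, 2 libraries a group leave 3 residual degrees of freedom, and leaving out a library leaves 1 in its group, which is assumed to vary like the others. No pairing of the libraries by replicate number was evident, though these correlations cannot exclude one. Deviations of same-numbered libraries from their group means correlated at -0.12 (control and overexpression), 0.0069 (control and knockdown) and -0.21 (overexpression and knockdown). With the replicate number as a block, 66 genes were called under overexpression in place of 165, with 1 member and 0 further pathway genes, and 15 members under knockdown. Under overexpression, calls over all genes numbered 9 without a filter, 97 without the expression trend and 14 to 172 with a library left out. Called members under overexpression numbered 0 without a filter and 1 with any library left out. Further pathway genes called under overexpression numbered 0 without a filter, after quantile normalization and without the trend, 2 with a filter at 5 FPKM and after median log ratio scaling, 3 with only the groups compared, and 0 to 3 with a library left out. For FoxO targets under overexpression the number was 0 without a filter and 0 to 1 with a library left out. Under knockdown, 8 to 16 members were called with a library left out, with 8 without control 1 and 10 without knockdown 1. FoxO targets under knockdown numbered 4 without a filter and 4 to 8 with a library left out. For overexpression against knockdown, members called numbered 9 without a filter and 9 to 14 with a library left out, with 9 without overexpression 2 and 9 without knockdown 1. Further pathway genes there numbered 23 without a filter and 20 to 34 with a library left out. FoxO targets there numbered 5 without a filter, without the trend and with the replicate block, and 4 to 8 with a library left out. For knockdown against control and overexpression against knockdown, calls over all tested genes fell as well in each of these alternatives. Under knockdown they went from 4948 of 10721 to 4894 of 17311 without a filter. In overexpression against knockdown they went from 4345 of 10721 to 4142 of 17311 without a filter. There they numbered 4142 of 10721 without the trend and 3820 of 10721 with the block. Fewer libraries were fitted with a library left out, and for the other alternatives the cause was not tested. Direction reversed for Eif4ebp1 under knockdown (log2 fold change 0.0612 after median log ratio scaling, 0.199 after quantile normalization and -0.1004 to 0.0752 with a library left out, the latter without control 2), for Sgk1 in overexpression against knockdown (-0.0590 without knockdown 1, up to 0.341 without knockdown 2) and for Ccnd1 in the same comparison (-0.0352 after quantile normalization).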

Other observations

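FoxO factors, which AKT keeps out of the nucleus, have known target genes, and 37 were listed, of which 26 were tested. Under overexpression 7 of the 26 had an unadjusted p under 0.05, beside 1833 of all 10721 tested genes. Of the 26, 1 was called, higher (3.85%, beside 1.54% of all tested genes). It was the catalase gene Cat, at 9.96 and 9.61 FPKM in control cells and 13.2 and 13.3 under overexpression (log2 fold change 0.40 ± 0.06, limma, adjusted p = 0.0171). The Cat call was lost without either control or either overexpression library and without a filter on low values. Under knockdown 8 of 26 were called, 6 higher and 2 lower (30.8%, beside 46.2% of all tested genes), with a median log2 fold change of 0.086 against -0.070 over all genes. After median log ratio scaling 11 were higher and 1 lower, so that 46.2% of these targets were called beside 42.7% of all tested genes, and the order of the shares turned round. After quantile normalization the shares were 42.3% and 40.1%.

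The stress-induced gene Gadd45b went from 5.03 and 4.65 FPKM in control cells to 12.5 and 11.2 under knockdown (1.14 ± 0.08, limma, adjusted p = 9.70e-05). Bcl6, a transcriptional repressor gene, went from 1.06 and 1.09 to 2.06 and 2.13 (0.58 ± 0.09, limma, adjusted p = 0.00150). The CDK inhibitor gene Cdkn1a went from 47.4 and 55.4 to 63.6 and 59.6 (0.26 ± 0.07, limma, adjusted p = 0.0208), the autophagy gene Gabarapl1 from 36.3 and 42.1 to 51.9 and 44.7 (0.29 ± 0.09, 0.0221), and Trp53inp1 from 1.74 and 2.04 to 2.84 and 2.67 (0.38 ± 0.12, 0.0273). Insr, the sixth gene that rose, is also a member of the main list. The cyclin D1 gene Ccnd1 fell from 226 and 225 to 179 and 173 (-0.35 ± 0.05, limma, adjusted p = 5.69e-04) and the superoxide dismutase gene Sod2 from 31.1 and 34.3 to 28.6 and 28.2 (-0.20 ± 0.06, 0.0316). Calls of Gadd45b, Bcl6 and Ccnd1 held in all alternative fits that tested them. Those of Cdkn1a and Gabarapl1 were lost without control 1, without knockdown 1 and without a filter on low values, that of Trp53inp1 in 5 of 14 and that of Sod2 in 8 of 15 alternative fits. Several of these genes are also targets of p53 and of stress pathways.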
